A study of Mus musculus with 18 samples.

Results

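The phagocyte NADPH oxidase was examined through 6 genes of its subunits, Cybb, Cyba, Ncf1, Ncf4, Rac1 and Rac2, in mouse bone marrow macrophages. They were picked by gene symbol out of the 16909 genes of the deposited count table, and all 6 were among the 12465 genes that passed the filter on low counts. The choice went by symbol and not by a cutoff on measured values, but it was made with earlier results of these data known.

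The oxidase moves electrons from NADPH in the cytosol across the membrane onto oxygen, and the superoxide made this way serves phagocytes in killing ingested microbes. Its catalytic core is a flavocytochrome of 2 membrane proteins, encoded by Cybb (NOX2, gp91phox) and Cyba (p22phox). In resting cells the organiser encoded by Ncf1 (p47phox) and the adaptor encoded by Ncf4 (p40phox) stay in the cytosol, and after a stimulus they move to the membrane together with a Rac GTPase, encoded by Rac1 or by the blood-cell form Rac2.

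Poly(A) RNA was sequenced from 4 groups. The UVABs and STSABs groups (n = 5 libraries each) were treated with apoptotic bodies (ABs), the membrane-bound fragments shed by dying cells, which came from cells labelled hucMSC and had been induced with UV or with STS. Both were named as treatments against inflammation. The LPS group (n = 5) was the positive control for inflammation, LPS being a bacterial lipopolysaccharide sensed through Toll-like receptors. The Con group (n = 3) was the mock group. Strain, age and sex of the mice, doses, times and whether the AB groups also received LPS were not given in the labels. They also do not say whether the libraries of a group came from separate animals or cultures, so the p-values below reflect how far these libraries vary, and that variation may be technical.

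Library totals lay between 17588357 and 18675283 counts, and each member was read with at least 1535 counts in every library. Macrophage markers were abundant in all groups, and no marker of that list was at 0. Their summed levels were 9631 to 10582 CPM (counts scaled to a common library total, with TMM factors) in UVABs, 8457 to 10019 CPM in STSABs, 11650 to 12972 CPM in LPS and 10731 to 11623 CPM in Con. Some features of the whole data set bear on the values below. The Con libraries took a mean scaling factor (TMM) of 1.51, against 0.902 to 0.932 in the other groups, so fold changes against Con depend on the scaling. The libraries numbered 2 in UVABs and in STSABs stood apart from the others of their groups. Markers of neutrophils and their precursors were higher in both AB groups than in LPS, with summed levels of 3434 to 4382 CPM in UVABs, 3447 to 4951 CPM in STSABs, 1947 to 2664 CPM in LPS and 1343 to 1636 CPM in Con.

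Cybb, the catalytic subunit, and Ncf1, the organiser, were the members furthest above Con in LPS libraries, and the stretches before their start sites are shown with the motifs searched in them. RefSeq promoter windows (GRCm38.p6, 250 bases before to 50 bases after the start) were at hand for 3 of the 6 members, Cybb, Cyba and Ncf1. Capitals mark matches on either strand to a pair of GAAA separated by any 2 bases, the interferon response element type, and to GAGGAA, the core bound by the myeloid factor PU.1 (reverse complement TTCCTC).
Cybb, chrX:9469325-9469574, minus strand: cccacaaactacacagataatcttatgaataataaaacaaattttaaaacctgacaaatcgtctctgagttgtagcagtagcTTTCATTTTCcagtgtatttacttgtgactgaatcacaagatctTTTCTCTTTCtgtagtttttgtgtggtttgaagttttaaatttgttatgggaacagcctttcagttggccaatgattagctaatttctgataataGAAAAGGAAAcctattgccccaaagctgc
Cybb, chrX:9469299-9469324, minus strand, just after the start: tgttttcatTTCCTCatcagaagaag
Ncf1, chr5:134229626-134229875, minus strand: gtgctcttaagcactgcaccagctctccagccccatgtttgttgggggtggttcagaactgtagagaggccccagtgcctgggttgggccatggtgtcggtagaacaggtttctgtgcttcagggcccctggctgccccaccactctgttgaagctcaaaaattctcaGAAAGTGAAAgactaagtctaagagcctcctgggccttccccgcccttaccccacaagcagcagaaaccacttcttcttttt
The Cybb window held 3 matches of the interferon type, starting at positions -168, -124 and -29 from the start site, and 1 PU.1 core at position 10. The Ncf1 window held 1 interferon-type match at position -82, which overlapped a match to the STAT-type letters TTCNNNGAA at position -88 (not in capitals). The Cyba window held neither. Of 32851 mouse promoter windows of the same length, 3.44% held the interferon type, 8.30% the STAT type and 28.3% the PU.1 core. A strict NF-kB type, GGG and TTTCC separated by any 2 bases, was found in 1.63% of windows and in none of the 3. A loose form, GGG and CC separated by any 5 bases, was in all 3 and in 50.8% of windows.

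**Figure D1:**
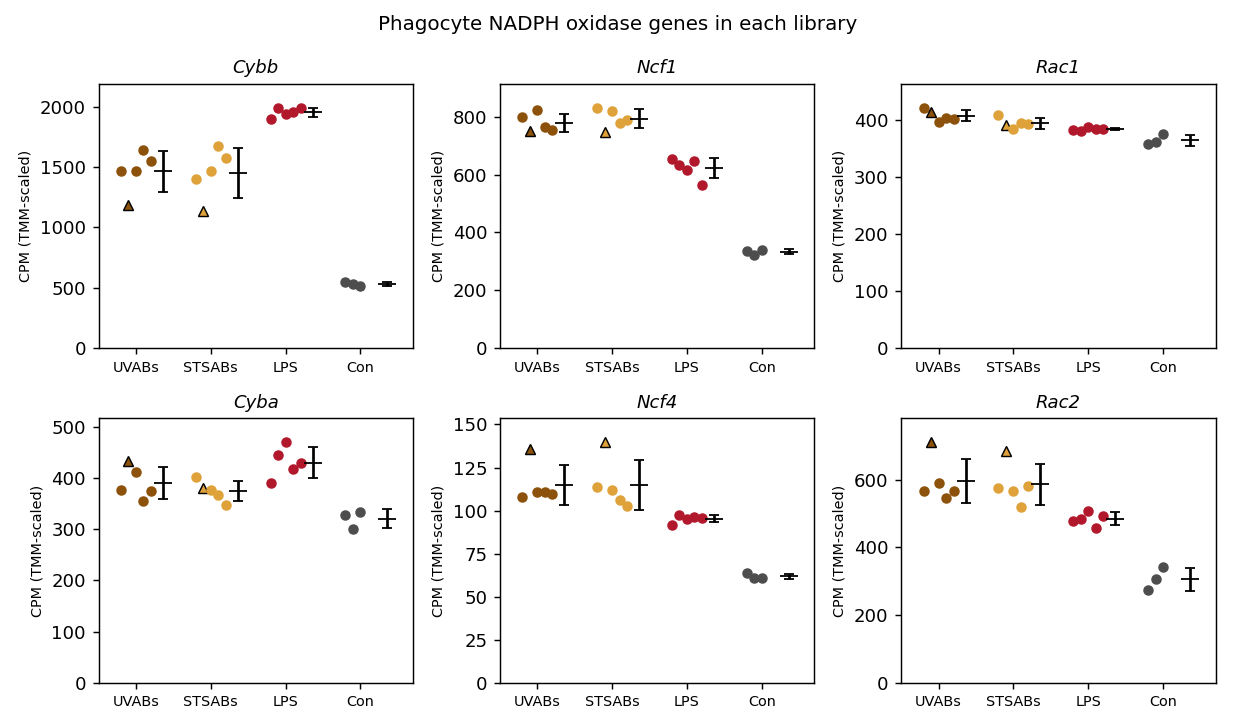
Levels of the 6 oxidase genes in each library, in CPM after TMM scaling, in UVABs, STSABs, LPS and Con. Points are libraries, triangles are the libraries numbered 2 of UVABs and STSABs, and bars are the mean ± SD (n = 5, 5, 5 and 3). Cybb was highest in LPS, Ncf1, Ncf4 and Rac2 were highest in the AB groups, and Rac1 moved least.

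Cybb, the catalytic subunit, was the member that differed most. It stood at 1469.9, 1187, 1472, 1643 and 1553 CPM in UVABs and at 1398, 1136, 1471, 1674 and 1575 CPM in STSABs. It stood at 1897, 1993, 1939.9, 1955 and 1989.9 CPM in LPS, against 545, 529.6 and 513 CPM in Con. Each AB library lay below each LPS library and above each Con library, and the 2 lowest AB values came from the libraries numbered 2. The AB groups were also more spread out, with SDs of 171 CPM in UVABs and 205 CPM in STSABs, against 39.6 CPM in LPS. Cybb rose in LPS over Con by a log2 fold change of 1.89 ± 0.10 (SE; edgeR quasi-likelihood test, Benjamini-Hochberg adjusted p = 1.39e-13). It was lower than in LPS by -0.42 ± 0.08 in UVABs (edgeR adjusted p = 0.000214) and by -0.43 ± 0.08 in STSABs (edgeR adjusted p = 0.000148). Without the libraries numbered 2 of both AB groups the log2 fold change was -0.35 in each comparison, and both calls held. The summed macrophage markers were lower in every AB library than in every LPS library too. The largest part of that sum was Lyz2, averaging 7408 CPM in UVABs, 6975 CPM in STSABs and 9551 CPM in LPS. Of the 8 markers, 2 were called higher and 4 lower than LPS in each AB group. Among all genes, 28.6% were higher and 28.8% lower in UVABs, and 28.4% and 29% in STSABs. Fcgr1 averaged 662, 651 and 577 CPM in UVABs, STSABs and LPS. The part of these markers in the lower Cybb was not tested. Fewer cells of a type and less RNA per cell cannot be told apart in such bulk samples.

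Cyba encodes the partner that stabilises the NOX2 protein and carries the docking site for the organiser. It stood at 376, 433, 412, 355 and 374 CPM in UVABs and at 402, 381, 376, 367 and 347 CPM in STSABs. It stood at 389, 445, 469, 418 and 429 CPM in LPS, against 327, 299 and 334 CPM in Con. All LPS libraries lay above all Con libraries, but both AB groups overlapped with LPS. The log2 fold change of LPS over Con was 0.42 ± 0.07 (edgeR adjusted p = 8.37e-06). With upper-quartile scaling it was 0.15 and not called, and with library totals alone it was -0.32 and called lower. Relative to LPS, the difference was -0.20 ± 0.06 in STSABs (edgeR adjusted p = 0.00714) and -0.14 ± 0.06 in UVABs (edgeR adjusted p = 0.0483). The UVABs call was lost when any 1 of 11 libraries was left out (replicate 1, 4 or 5 of UVABs, 3 or 4 of STSABs, 2, 3, 4 or 5 of LPS, 1 or 3 of Con), with log2 fold changes of -0.15 to -0.11. Without the libraries numbered 2 of both AB groups the values were -0.18 in UVABs and -0.20 in STSABs, both called.

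Ncf1 encodes the organiser whose phosphorylation opens the complex for assembly. It stood at 799, 751, 825, 765 and 755 CPM in UVABs and at 832, 748, 819, 778 and 790.1 CPM in STSABs. It stood at 653, 632, 617, 646 and 564 CPM in LPS, against 336, 323 and 340.3 CPM in Con. The order was the reverse of that of Cybb between the AB groups and LPS, for every AB library lay above every LPS library. Ncf1 rose in LPS over Con by 0.90 ± 0.06 on the log2 scale (edgeR adjusted p = 1.34e-12). Relative to LPS it was higher by 0.32 ± 0.05 in UVABs (edgeR adjusted p = 5.38e-06) and by 0.35 ± 0.05 in STSABs (edgeR adjusted p = 1.87e-06). Without the libraries numbered 2 these were 0.34 and 0.37.

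Ncf4 encodes the adaptor that binds a phosphoinositide of the phagosome membrane. It stood at 108, 136, 111, 111 and 109 CPM in UVABs and at 114, 139.6, 112, 106 and 102 CPM in STSABs. It stood at 91.9, 97.4, 95.0, 96.1 and 95.9 CPM in LPS, against 63.7, 61.1 and 60.9 CPM in Con. No 2 of these groups overlapped other than UVABs and STSABs, and the highest value of each AB group was its library numbered 2. The log2 fold change of LPS over Con was 0.62 ± 0.08 (edgeR adjusted p = 5.51e-07), and it was -0.12 and not called with library totals alone. Relative to LPS, Ncf4 rose by 0.27 ± 0.07 in UVABs (edgeR adjusted p = 0.00277) and by 0.27 ± 0.07 in STSABs (edgeR adjusted p = 0.00299). Without the libraries numbered 2 the values were 0.20 and 0.19, and both calls held.

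Rac2, the GTPase form largely limited to blood cells, followed the same order. It stood at 566, 709, 588, 547 and 565 CPM in UVABs and at 576, 684, 566, 519.7 and 580.4 CPM in STSABs. It stood at 476, 485, 508, 456 and 493 CPM in LPS, against 273, 305 and 341 CPM in Con. The groups did not overlap except for UVABs with STSABs, and the libraries numbered 2 again held the highest AB values. Rac2 rose in LPS over Con by 0.66 ± 0.09 on the log2 scale (edgeR adjusted p = 5.05e-07), whereas with library totals alone the value was -0.09 and not called. Relative to LPS it rose by 0.30 ± 0.08 in UVABs (edgeR adjusted p = 0.00183) and by 0.28 ± 0.08 in STSABs (edgeR adjusted p = 0.00358). Without the libraries numbered 2 these were 0.23 and 0.21, and both calls held.

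Rac1, the GTPase form present in most cell types, differed least between the groups. It stood at 421, 413, 396, 403 and 402 CPM in UVABs and at 408, 389.9, 383, 394 and 392 CPM in STSABs. It stood at 382, 381, 387, 384 and 383 CPM in LPS, against 357, 360.2 and 375 CPM in Con. The log2 fold change of LPS over Con was 0.07 ± 0.04 and did not pass (approximate 95% interval -0.01 to 0.16; edgeR adjusted p = 0.103), although the groups did not overlap. Its direction turned to -0.20 with upper-quartile scaling and to -0.67 with library totals alone, both called lower. With DESeq2's size factors the edgeR test called it higher at 0.09 (edgeR adjusted p = 0.0455). DESeq2's own test also called it higher at 0.09 (DESeq2 adjusted p = 0.00317). STSABs overlapped with LPS, at 0.04 ± 0.04 (edgeR adjusted p = 0.402). UVABs did not overlap with LPS, and the difference of 0.09 ± 0.04 just passed (edgeR adjusted p = 0.0485). That call was lost without the libraries numbered 2 of both AB groups (0.08), and when any 1 of 15 libraries was left out (0.07 to 0.09). It was also lost with no filter (0.09), with replicates 1 to 3 only (0.10) and with the replicate block (0.09). The 15 libraries were replicate 1, 2, 4 or 5 of UVABs, 2, 3, 4 or 5 of STSABs, any of LPS, and 1 or 2 of Con.

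Counted over the family, 5 of the 6 members were called higher in LPS than in Con and none lower, where 40% of all genes tested were called higher, 43% lower and 83% in either direction. The groups were without overlap for 6 of 6 members, as they were for 80% of all genes. The median log2 fold change of the 6 was 0.64, beside -0.03 over all genes tested. With library totals alone 2 were called higher (Cybb at 1.14 and Ncf1 at 0.16) and 2 lower (Cyba and Rac1), while the median of all genes moved to -0.78. With upper-quartile scaling that median was -0.31, and 4 members were called higher and 1 lower. Each of the 6 members lay above the median of all genes under these scalings.

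Between STSABs and LPS, 3 members were called higher and 2 lower, where 28.4% of all genes were called higher, 29% lower and 57.4% in either direction. Between UVABs and LPS, 4 were called higher and 2 lower, beside 28.6%, 28.8% and 57.4% of all genes. Both membrane subunits were on the lower side, and Ncf1, Ncf4 and Rac2 on the higher side. The median over the 6 was 0.15 in STSABs and 0.18 in UVABs, beside -0.01 and 0.00 over all genes. These comparisons share the LPS libraries, so they are not independent of each other or of that between LPS and Con. The groups were without overlap for 4 members in STSABs and for 5 in UVABs, as they were for 42.5% and 42.3% of all genes.

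**Figure D2:**
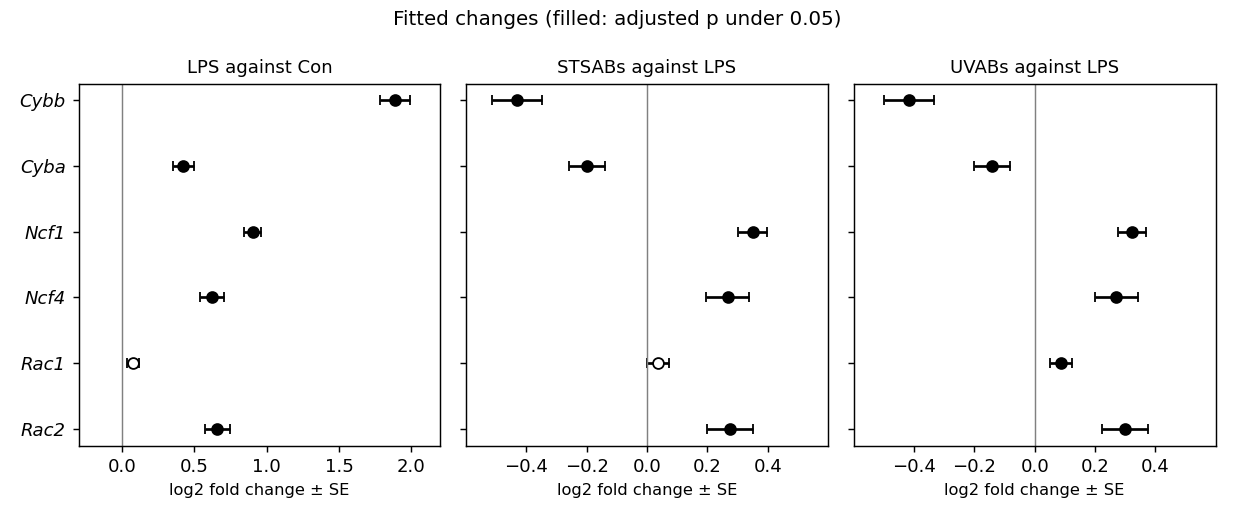
Log2 fold changes of the 6 oxidase genes with their SE, from the edgeR fit with TMM scaling, for LPS against Con (left), STSABs against LPS (middle) and UVABs against LPS (right, same scale as the middle). Filled points have an adjusted p under 0.05; Cybb and Cyba lie below 0 and Ncf1, Ncf4 and Rac2 above 0 in both AB panels, and Cyba, Ncf4, Rac1 and Rac2 in the left panel turn below 0 with library totals alone.

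Markers of neutrophils moved in the same direction as Ncf1, Ncf4 and Rac2. Of 12 such markers, 10 rose in UVABs and 12 in STSABs relative to LPS and none fell, where 28.6% and 28.4% of all genes rose and 57.4% were called in either direction in each. None was at 0 in any group. In LPS over Con, 7 of the 12 rose and 4 fell, where 40% of all genes rose and 43% fell. S100a8, which encodes a calcium-binding protein abundant in neutrophils, averaged 957 CPM in UVABs, 1023 CPM in STSABs, 545 CPM in LPS and 269 CPM in Con. Ly6g, a surface marker of mouse neutrophils, averaged 7.71 CPM in UVABs, 7.80 CPM in STSABs, 4.78 CPM in LPS and 3.27 CPM in Con. Others of the list were lower in LPS than in Con, such as Ltf (lactoferrin), which averaged 207 CPM in UVABs, 229 CPM in STSABs, 103 CPM in LPS and 165 CPM in Con. Cxcr2, a chemokine receptor of neutrophils, averaged 3.43 CPM in UVABs, 4.25 CPM in STSABs, 2.52 CPM in LPS and 14.2 CPM in Con. The libraries numbered 2 held the highest Ncf4 and Rac2 of both AB groups, while their summed neutrophil markers were the lowest of UVABs (3434 CPM) and the highest of STSABs (4951 CPM). The part of such cells in the higher Ncf1, Ncf4 and Rac2 was not tested. Markers of B cells, of T and NK cells and of stromal cells summed to at most 6.26 CPM in any library. Those of dendritic cells summed to 3791 to 4345 CPM in UVABs, 3817 to 4260 CPM in STSABs, 3885 to 4119 CPM in LPS and 1225 to 1374 CPM in Con. The largest part outside Con was Ccr7, averaging 3016, 2967, 2492 and 142 CPM in the same order. Itgax averaged 951, 935, 1358 and 1099 CPM, and was thus higher in Con than in the AB groups.

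**Figure D3:**
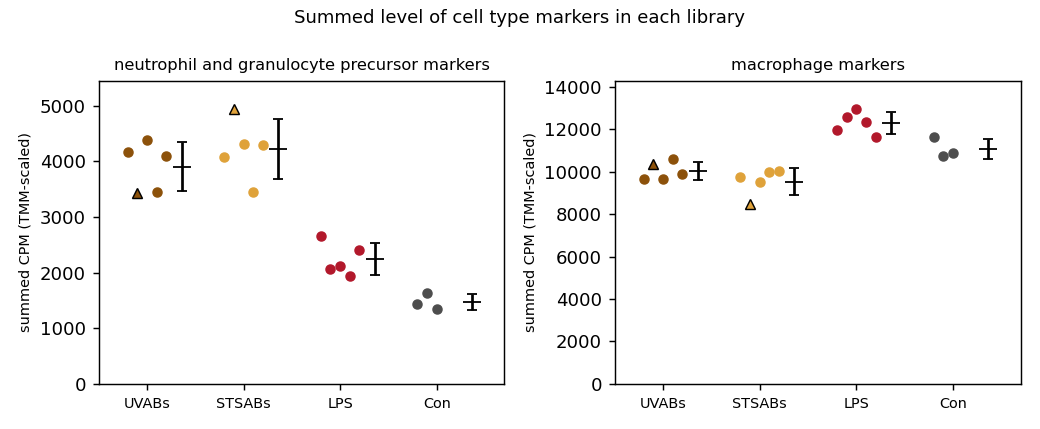
Summed levels of cell type marker lists in each library, in CPM after TMM scaling, in UVABs, STSABs, LPS and Con (points are libraries, triangles the libraries numbered 2 of UVABs and STSABs, bars the mean ± SD). The neutrophil list ran from 3434 to 4951 CPM over both AB groups and stayed at or below 2664 CPM in LPS and Con.

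No member passed the test between UVABs and STSABs. The log2 fold changes of UVABs over STSABs were 0.01 for Cybb, 0.06 for Cyba, -0.03 for Ncf1, 0.00 for Ncf4, 0.05 for Rac1 and 0.02 for Rac2, and the values of the 2 groups overlapped for each. Same-numbered libraries of these groups deviated together to some degree (r between 0.116 and 0.540). They were taken as 5 pairs, which is an assumption. Within pairs, Rac1 was higher in UVABs in 5 of 5, by a mean of 0.05 on the log2 scale (exact two-sided sign-flip permutation p = 0.0625, the smallest that 5 pairs allow, not adjusted for the 6 members compared). UVABs was higher in 3 of 5 pairs for Cybb, Cyba and Rac2 and in 2 of 5 for Ncf1 and Ncf4, with exact permutation p between 0.25 and 0.875. In a fit of the AB groups with the pairs as a block, Rac1 stood at 0.05 (edgeR adjusted p = 0.997) and 0 genes were called. The approximate 95% intervals, without the pairs, reached from -0.15 to 0.18 for Cybb, from -0.06 to 0.18 for Cyba, from -0.12 to 0.07 for Ncf1 and from -0.14 to 0.14 for Ncf4. They reached from -0.02 to 0.12 for Rac1 and from -0.12 to 0.17 for Rac2. Over all 12465 genes, 0 (0%) were called by edgeR's quasi-likelihood test, and DESeq2 and limma-voom also called 0. An unadjusted edgeR p under 0.05 was found for 198 genes, and for 457 in the block fit of the AB groups. The 198 are fewer than the share of 0.05 that no difference at all would give. The test was thus cautious here, and 0 calls do not show that the groups are alike.

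Relative to Con, both AB groups were called higher for all 6 members, where 40.2% of all genes in UVABs and 40% in STSABs were called higher, 42.4% and 42.6% lower, and 82.6% in either direction in each. The groups were without overlap for 6 of 6 members in both, as they were for 77.7% of all genes in UVABs and 77.6% in STSABs. The log2 fold change of Cybb was 1.47 ± 0.10 in UVABs and 1.45 ± 0.10 in STSABs, and that of Ncf1 was 1.23 ± 0.06 and 1.25 ± 0.06 in the same order. Ncf4 reached 0.89 in both, and Rac2 0.96 in UVABs and 0.93 in STSABs. With library totals alone the STSABs values were 0.76 for Cybb, 0.55 for Ncf1, 0.19 for Ncf4 and 0.24 for Rac2, all called higher. Cyba stood at 0.28 in UVABs and 0.23 in STSABs, and with library totals alone these were -0.42 and -0.47. Rac1 stood at 0.16 in UVABs and 0.11 in STSABs, and turned to -0.54 and -0.59 with library totals alone. The STSABs call on Rac1 was also lost with no filter (0.09), in a fit of the 2 groups alone (0.12), with replicates 1 to 3 only (0.12), and without replicate 1 or 2 of Con (0.10 each).

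**Figure D4:**
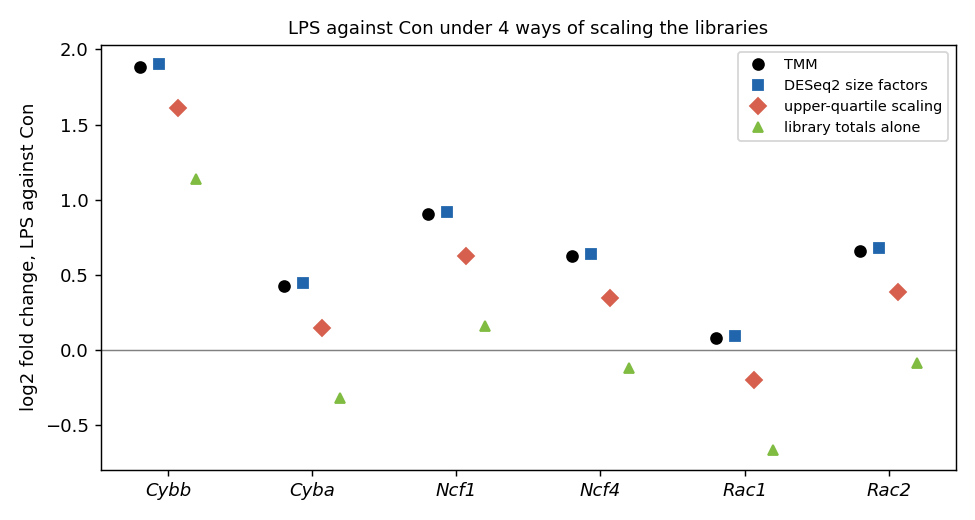
Log2 fold changes of the 6 oxidase genes in LPS against Con under 4 ways of scaling the libraries (TMM, DESeq2 size factors, upper quartile and library totals alone). Cybb and Ncf1 stayed above 0 under all 4, Cyba, Ncf4 and Rac2 lay below 0 with library totals alone, and Rac1 lay below 0 with upper-quartile scaling too.

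Ratios of 2 members within a library do not depend on the scaling between libraries, and are given without a test. The ratio of Cybb to Cyba counts was 3.91, 2.74, 3.58, 4.63 and 4.15 in UVABs and 3.47, 2.98, 3.91, 4.56 and 4.54 in STSABs. It was 4.87, 4.48, 4.13, 4.67 and 4.64 in LPS, against 1.66, 1.77 and 1.54 in Con. All other groups lay above Con for this pair of membrane subunits, and the AB groups overlapped with LPS while holding the lowest values of these 3 groups. The mean ratios were 3.80 ± 0.706 in UVABs, 3.89 ± 0.686 in STSABs, 4.56 ± 0.276 in LPS and 1.66 ± 0.117 in Con (SD, n = 5, 5, 5 and 3).

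The ratio of Rac2 to Rac1 counts was 1.35, 1.72, 1.48, 1.36 and 1.41 in UVABs and 1.41, 1.76, 1.48, 1.32 and 1.48 in STSABs. It was 1.25, 1.27, 1.31, 1.19 and 1.29 in LPS, against 0.765, 0.847 and 0.907 in Con. The AB groups lay above LPS and LPS above Con with no overlap. The geometric mean ratio was 1.16-fold higher in UVABs and 1.18-fold higher in STSABs than in LPS, and 1.50-fold higher in LPS than in Con.

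The ratio of Ncf1 to Ncf4 counts, between the cytosolic partners, averaged 6.84 ± 0.773 in UVABs, 7.01 ± 0.936 in STSABs, 6.54 ± 0.444 in LPS and 5.38 ± 0.179 in Con (SD, n = 5, 5, 5 and 3). LPS libraries lay above Con libraries, and both AB groups overlapped with LPS. Both overlapped with Con through their libraries numbered 2 alone, at 5.53 in UVABs and 5.36 in STSABs, and without that library STSABs would not overlap with LPS.

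**Figure D5:**
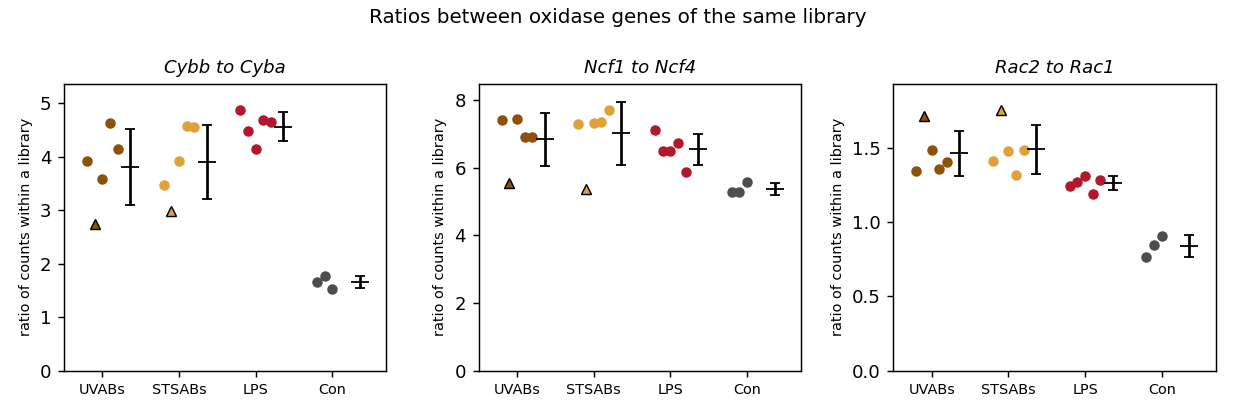
Ratios of the counts of Cybb to Cyba, Ncf1 to Ncf4 and Rac2 to Rac1 within each library, in UVABs, STSABs, LPS and Con (points are libraries, triangles the libraries numbered 2 of UVABs and STSABs, bars the mean ± SD). The ratio of Rac2 to Rac1 separated the AB groups, LPS and Con, and that of Cybb to Cyba put Con apart at 1.66.

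The share of each gene in the counts of the 6 does not depend on the scaling either, and a higher share of 1 gene lowers those of the others. Cybb supplied 39.0% ± 3.90 of the counts of the 6 genes in UVABs, 39.0% ± 4.21 in STSABs, 49.2% ± 0.759 in LPS and 27.7% ± 1.35 in Con (SD, n = 5, 5, 5 and 3). Ncf1 supplied 20.8% ± 0.746 in UVABs, 21.4% ± 0.824 in STSABs, 15.7% ± 0.968 in LPS and 17.4% ± 0.251 in Con. The LPS libraries thus held the smallest share for Ncf1, between 14.3% and 16.8%, with no overlap with any other group. Ncf4 supplied 3.07% in UVABs, 3.11% in STSABs, 2.40% in LPS and 3.23% in Con, and Rac2 15.9%, 15.8%, 12.2% and 16.0% in the same order. For both, LPS was below every other group. Rac1 supplied 10.9% in UVABs, 10.6% in STSABs, 9.66% in LPS and 19.0% in Con. Together the 6 genes made up 0.348% of all counts in UVABs, 0.346% in STSABs, 0.358% in LPS and 0.289% in Con.

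Levels between members were compared per kilobase of exon (union of exons, GENCODE M21, a build other than that of the counts). In UVABs, STSABs and LPS the order by mean level per kilobase was Cyba, Cybb, Ncf1, Rac2, Rac1, Ncf4, the highest first. Cybb and Ncf1 overlapped in UVABs (250 to 346 against 261 to 286 CPM per kilobase) and in STSABs (239 to 352 against 260 to 289). In the libraries numbered 2 of both AB groups Ncf1 stood above Cybb. Rac1 and Ncf4 also overlapped in STSABs. In LPS, Cyba stood at 578 ± 40.1, Cybb at 411 ± 8.34, Ncf1 at 216 ± 12.3, Rac2 at 159 ± 6.32, Rac1 at 91.0 ± 0.535 and Ncf4 at 65.1 ± 1.41 CPM per kilobase (SD, n = 5), and no neighbours in that order overlapped. In Con, Cyba led at 431 ± 24.8 CPM per kilobase, and Ncf1 at 116 ± 3.15, Cybb at 111 ± 3.32 and Rac2 at 101 ± 11.1 followed within each other's spread (SD, n = 3). In Con the order ended with Rac1 at 86.4 ± 2.35 and Ncf4 at 42.3 ± 1.07 CPM per kilobase. The order was the same with the longest transcript of each gene as its length.

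Other rows whose symbols start with Nox or Duox had few counts and are given without a test. Nox1, a catalytic homologue, had 1 to 7 counts per library in UVABs, 4 to 10 in STSABs and 12 to 16 in LPS, and 0 in each Con library. Noxo1, the homologue of the organiser, had 15 to 32 counts in UVABs, 16 to 23 in STSABs, 5 to 10 in LPS and 19 to 23 in Con. Duox1, Duox2, Duoxa1, Duoxa2, Noxa1 and Noxred1 had at most 13 counts in any library and did not pass the filter.

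The gene lists around the oxidase are read against the shares of all genes called higher and lower, which were 40% and 43% in LPS over Con, 28.6% and 28.8% in UVABs over LPS, and 28.4% and 29% in STSABs over LPS. Genes for maturation of the oxidase and for balancing its charge were mixed. Of 7, 3 rose and 2 fell in UVABs relative to LPS, and 4 rose and 2 fell in STSABs. Hvcn1, the proton channel that offsets the charge moved by the oxidase, fell by 0.86 in UVABs and by 0.91 in STSABs on the log2 scale. Hsp90aa1, an inducible chaperone, was at -0.48 in UVABs and -0.50 in STSABs relative to LPS, having risen by 0.90 in LPS over Con. Hmox2, a haem oxygenase, rose by 0.24 in UVABs and by 0.21 in STSABs relative to LPS, and by 0.83 in LPS over Con. In LPS over Con, 2 of the 7 rose and 3 fell. Cybc1, the chaperone of the NOX2 protein, passed in none of these 3 comparisons, at 0.04 in UVABs and 0.10 in STSABs relative to LPS and 0.09 in LPS over Con.

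Regulators of Rac changed in both directions. Of 10 exchange factors, which load Rac with GTP, 2 rose and 6 fell in LPS over Con, where 40% of all genes rose and 43% fell, with Arhgef6 at -2.09, Vav2 at -1.53 and Dock1 at -1.18, and Elmo1, a partner of the Dock factors, at 0.81 on the log2 scale. Of 7 inhibitors, 2 rose and 5 fell, with Racgap1 at -2.29, Arhgap15 at -1.51 and Arhgap25 at -0.90. Relative to LPS, 3 exchange factors rose and 3 fell in UVABs, and 3 rose and 4 fell in STSABs. The lower ones included Dock1 at -0.51 in UVABs and -0.50 in STSABs, and Vav3 at -0.48 and -0.59 in the same order. Among the inhibitors 3 rose and 2 fell in each AB group. Arhgap25, a GTPase-activating protein of blood cells, stood at -0.63 in UVABs and -0.70 in STSABs, and Arhgdib, a GDP dissociation inhibitor, at 0.35 in UVABs and 0.36 in STSABs.

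Of 5 other small GTPases, 4 rose and 1 fell in LPS over Con, with Rhoa at 0.54 and Cdc42 at 0.65. Those 2 turned to -0.21 and -0.10 with library totals alone. Relative to LPS, 1 rose and 3 fell in each AB group, with Cdc42 at -0.26 in both.

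Among 17 kinases and lipid enzymes that act before assembly, 6 rose and 9 fell in LPS over Con, near the shares of all genes (40% and 43%). Pik3r5, a regulatory subunit of a phosphoinositide kinase, reached 2.64, and Pak1, a kinase activated by Rac, stood at -2.39 on the log2 scale. Relative to LPS, 6 rose and 5 fell in UVABs, and 7 rose and 4 fell in STSABs. Pik3cd and Pik3cg, catalytic subunits of phosphoinositide kinases, rose by 0.40 and 0.75 in UVABs and by 0.42 and 0.82 in STSABs. Prkcd, a protein kinase C, was at -0.43 in both AB groups relative to LPS and at 0.49 in LPS over Con, which turned to -0.25 with library totals alone.

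Of 11 transcription factors known to act on oxidase genes, 9 rose and 1 fell in LPS over Con, where 40% of all genes rose and 43% fell, with a median log2 fold change of 1.32 beside -0.03 over all genes. Irf1, of the interferon response, reached 3.78, Nfkb1, an NF-kB subunit, reached 2.72, and Cebpa, a myeloid factor, was at -3.33. With library totals alone 8 rose and 2 fell. Relative to LPS, 3 rose and 5 fell in each AB group. Spi1, which encodes PU.1, was lower by -0.44 in both AB groups, and Nfkb1 by -0.35 in UVABs and -0.34 in STSABs. Cebpe, a factor of granulocyte maturation, rose by 0.85 in UVABs and by 0.96 in STSABs.

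The 9 genes of NADPH supply split into 4 that rose and 5 that fell in LPS over Con. G6pdx and Pgd, the NADPH-making enzymes of the pentose phosphate pathway, stood at 0.35 and 0.44 and turned to -0.39 and -0.31 with library totals alone. Relative to LPS none rose and 4 fell in each AB group, beside 28.8% of all genes that fell in UVABs and 29% in STSABs, with Pgd at -0.40 in UVABs and -0.42 in STSABs, G6pdx at -0.24 and -0.25, and Me1 (malic enzyme) at -1.20 and -0.90, in the same order. With library totals alone, 3 rose and 3 fell in UVABs and 1 rose and 3 fell in STSABs. Of 11 genes that dispose of superoxide and peroxide, 6 rose and 4 fell in LPS over Con, led by Sod2, the mitochondrial superoxide dismutase, at 3.80 and Prdx1, a peroxiredoxin, at 2.22. Relative to LPS, 5 rose and 4 fell in UVABs, and 4 rose and 4 fell in STSABs, with Sod2 at -0.38 in UVABs and -0.41 in STSABs and Gpx4, a lipid peroxide reductase, at 0.47 and 0.46 in the same order. No gene of any of these lists passed between UVABs and STSABs.

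In LPS over Con the median log2 fold change was 0.00 for maturation and charge, -0.24 for the exchange factors, -0.90 for the inhibitors of Rac and 0.55 for the other GTPases, beside -0.03 over all genes. It was -0.43 for the kinases and lipid enzymes, -0.16 for NADPH supply and 0.60 for the disposal of superoxide and peroxide. Relative to LPS the medians of the 8 lists lay between -0.15 and 0.22 in UVABs and between -0.15 and 0.11 in STSABs, beside 0.00 and -0.01 over all genes. With library totals alone, LPS over Con had 1 higher and 5 lower for maturation and charge, 0 and 9 for the exchange factors, 1 and 6 for the inhibitors and 1 and 3 for the other GTPases. It then had 2 and 15 for the kinases, 2 and 7 for NADPH supply and 5 and 5 for disposal.

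The genes whose levels followed each member most closely over the 18 libraries were found by the mean absolute difference of centred log2 CPM among 9134 genes with a mean of at least 5 CPM. Nearest to Cybb were Kat2b (0.0448), Cers6 (0.0562) and B3gnt2 (0.0582), and nearest to Ncf1 were Plekha2 (0.0385), Tbl1x (0.0454) and Nxf1 (0.0472). Nearest to Rac2 were Sphk2 (0.0515), Gapdh (0.0563) and Zfp598 (0.0579), and nearest to Rac1 were Sdf4 (0.0390), Psd4 (0.0395) and Med24 (0.0400). Nearest to Cyba were Rtf2 (0.0491), Tmed9 (0.0541) and Atp5g3 (0.0546). Nearest to Ncf4 were Rab7 (0.0612), Gapdh (0.0626) and Rac2 (0.0634), and Ncf4 with Rac2 was the closest pair among the members. Cybb was at least 0.339 from every other member.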

How the data were processed

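Poly(A) RNA of 18 libraries was read as paired ends (Illumina NovaSeq) after dUTP marking of the second strand, per the labels' protocols. HISAT2 and the build mm39 were used, per the submitters' processing notes; for the counter and how it treated strand, for the annotation and for all versions, the sources used here give nothing. The authors deposited estimated counts per gene symbol without normalization. Of the values 6.35% were not whole, none of them in a member, and all were rounded. Whether reads of overlapping or antisense genes were kept apart in the counts is thus not known.

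Genes were filtered with filterByExpr by group (12465 of 16909 left, with 99.97% of the counts), scaled by TMM and tested in 1 edgeR quasi-likelihood fit (edgeR 4.0.16, R 4.3.3) of all 18 libraries with group means, over 6 contrasts, with Benjamini-Hochberg adjustment over all genes at 0.05. CPM are TMM-scaled. The log2 CPM behind the nearest genes and the r between same-numbered libraries were computed with a prior count of 2. Log2 fold changes are those of the fits, and differences within pairs used CPM without a prior count. Intervals are 1.96 SE to each side. UVABs replicates 4 and 5 carry a shorter spelling in the labels. The 6 members are named in full, other symbols starting with Nox or Duox by value, and each list by counts and up to 4 genes of the smallest adjusted p; Cybc1 was added after its values were seen. A few genes of that choice are not reported here. Members and lists were chosen with earlier results of these data known.

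Same-numbered libraries of UVABs and STSABs deviated together (r between 0.116 and 0.540 over 5 pairs) and were taken as pairs. Libraries of unlike numbers were not compared, so this pairing is assumed. The largest r came from the libraries numbered 2, and replicates 1, 3 and 5 gave 0.116, 0.129 and 0.137. With the replicate block 0 genes were called between UVABs and STSABs, as without it. Alternatives were DESeq2 1.42.0 (size factors and test), limma-voom 3.58.1, upper-quartile scaling, library totals, other filters, fits of fewer groups or replicates, a term that sets replicates 1 to 3 apart from the rest, the replicate block, each library left out, and, chosen after seeing the data, a block fit of the AB groups alone and differences within pairs. Promoter windows are from RefSeq (GRCm38.p6), a build other than mm39.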

Additional observations from a re-analysis of the deposited data

Results flagged for a closer look

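Of 18 sets of values checked (6 genes in the groups of 5 libraries), 2 held a library far from the other 4, where chance alone gives about 1 set in 20. Ncf4 stood at 136 CPM in replicate 2 of UVABs, and the next highest library of UVABs was at 111 CPM, a gap of 0.891 of the group's range. Rac2 stood at 709 CPM in the same library, with the next at 588 CPM, a gap of 0.744 of the range. Replicate 2 of STSABs was also the highest of its group for both genes, at 139.6 CPM for Ncf4 and 684 CPM for Rac2. The cause was not tested.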

How the results depend on the processing

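Changes against Con depended on the scaling. With upper-quartile scaling, 1 member was called lower in each comparison with Con, against 0 with TMM; Rac1 was at -0.20 in LPS, -0.15 in STSABs and -0.11 in UVABs, and Cyba at -0.040 in STSABs. With library totals alone, 2 were called higher in LPS (5 with TMM), and 2 lower in LPS, STSABs and UVABs, each against 0. Cyba was then at -0.32 in LPS, -0.47 in STSABs and -0.42 in UVABs, Rac1 at -0.67, -0.59 and -0.54 in the same order, and Ncf4 at -0.12 and Rac2 at -0.086 in LPS. Of the calls in LPS over Con, 48.2% were higher with TMM, 36.03% with upper-quartile scaling and 21.2% with library totals. Between STSABs and LPS, 1 member instead of 2 was called lower with replicates 1 to 3 only, Cyba at -0.16. Between UVABs and LPS, 1 instead of 2 was called lower with DESeq2's size factors, upper-quartile scaling, library totals, no filter, the stricter filter, a fit of the 2 groups alone and replicates 1 to 3 only; leaving out each library gave 1 to 2. Cyba, the gene lost, lay between -0.15 and -0.09 under these settings.

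Between UVABs and STSABs no member passed under any setting, and signs changed around 0: Ncf4 was at -0.0010 with DESeq2's size factors and with DESeq2, -0.0017 with upper-quartile scaling, -0.0050 with library totals and -0.045 with replicates 1 to 3. Leaving out each library moved Ncf4 between -0.064 and 0.082, Rac2 between -0.047 and 0.085 and Cybb between -0.063 and 0.080. Same-numbered libraries of other pairs of groups deviated together by r of -0.09 to 0.11. With the replicate block, Rac1 in UVABs against LPS was at 0.09 and not called (edgeR adjusted p = 0.0521), and no other call on a member changed. Ncf4 had the fewest counts (1535 to 2296 per library), and the spread of Ncf4 and Rac1 in LPS was no larger than counting error.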
